A study of Mus musculus with 20 samples.

Results

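The genes described are 10 immediate early and stress response genes, chosen by symbol: Fos, Jun, Junb, Jund, Egr1, Ier2, Ier3, Nfkbia, Atf3 and Hspb1. Each had 1 row among the 23235 genes of the deposited expression table. Levels are in FPKM (fragments scaled for transcript length and for library total). The 12 RNA libraries form 6 groups of 2: WT and Cxxc1-null cells at pachytene, diplotene and meiosis II. Cxxc1 encodes the CpG-binding member of SETD1 complexes, which methylate histone H3 at lysine 4. All mice were adult males of a C57BL/6 background, and each library was made from 500 spermatocytes sorted by flow cytometry and amplified with Smart-seq2, in which oligo-dT primes cDNA along whole transcripts. The labels give neither the Cre driver, nor the deleted exons, nor whether paired libraries of a group are different animals; every p-value therefore rests on the spread between libraries, which may be technical.

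Immediate early genes are transcribed within minutes of a stimulus, without new protein synthesis. Mitogen-activated protein kinases act on SRF, ETS and CREB factors that are already bound at their promoters. FOS and JUN family proteins pair to form the AP-1 transcription factor. EGR1 is a zinc finger factor of the same early wave. NFKBIA holds NF-kB in the cytoplasm and is itself an NF-kB target, so that its transcript rises when NF-kB is released. ATF3 belongs to the integrated stress response, and HSPB1 is a small heat shock protein that binds unfolded proteins and actin. Several of these genes are known to be induced when tissue is dissociated and sorted.

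Promoter letters are shown for the 4 genes on whose levels the results turn and that have an entry in the RefSeq promoter table. The table is of GRCm38.p6, a different build from the mm9 named in the submitters' processing notes, and promoters of 8 of the 10 genes were used, matched by symbol. Egr1 and Ier2 were not among them. All promoters of a single chromosome were left out before the search. Each line gives the 130 bases just before the annotated start, 5′ to 3′ on the gene's strand. Capitals mark the CRE core (TGACG) and TATAAA in Fos, the kB site in Nfkbia and Ier3, and the heat shock element pair GAANNTTC in Hspb1. The windows are chr12:85473760-85473889 on the plus strand for Fos, chr12:55492648-55492777 on the minus strand for Nfkbia, chr17:35821583-35821712 on the plus strand for Ier3 and chr5:135887789-135887918 on the plus strand for Hspb1.
Fos: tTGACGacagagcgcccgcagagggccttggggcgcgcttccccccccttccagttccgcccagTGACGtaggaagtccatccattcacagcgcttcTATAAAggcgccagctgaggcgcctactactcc
Nfkbia: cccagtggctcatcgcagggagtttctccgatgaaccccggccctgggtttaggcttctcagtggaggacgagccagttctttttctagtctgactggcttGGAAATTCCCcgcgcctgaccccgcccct
Ier3: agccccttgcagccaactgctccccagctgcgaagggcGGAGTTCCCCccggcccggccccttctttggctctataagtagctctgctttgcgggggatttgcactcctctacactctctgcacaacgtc
Hspb1: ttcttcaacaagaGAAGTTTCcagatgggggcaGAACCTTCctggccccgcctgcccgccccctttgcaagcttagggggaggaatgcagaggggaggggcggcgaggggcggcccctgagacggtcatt
In the 250 bases before the start, searched on both strands, the kB site was found in 3 of the 8 promoters (Nfkbia, Ier3 and Fos), against 3.9% of the 32851 promoters searched. The CRE core was found in 4 (Fos, Junb, Atf3 and Hspb1), against 17.8%, and its match can overlap a full CRE, which was found in 0 of the 8 and in 1.55% of those searched. GAANNTTC was found in 2 (Hspb1 and Jun), against 6.69%, and TATAAA in Fos alone, against 12.4%. The CArG box of SRF, the AP-1 site TGAGTCA and TTCNNGAA were found in 0 of the 8, against 1.47%, 4.46% and 7.17%. Sites further from the start, and any site of Egr1 or Ier2, lay outside this search, so these counts do not show that the genes lack them. The CRE core and both heat shock pairs were added after the sequences had been seen.

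The files give no fragment totals, so the depth behind each FPKM is unknown. A library had 9838 to 11624 genes at 1 FPKM or more. Cxxc1 was at 11.7 to 17.6 FPKM in the 6 WT libraries, at 8.29 to 9.57 FPKM in Cxxc1-null pachytene and diplotene, and at 3.1 and 2.02 FPKM in Cxxc1-null meiosis II. At least 11 of 12 meiotic prophase markers reached 1 FPKM in each library, Sycp3 among them at 140 to 2420 FPKM. In an earlier look at these data WT pachytene replicate 2 and Cxxc1-null diplotene replicate 2 stood apart from the others. Values without both are given for some of the calls that depend on them, those of Junb and Ier3.

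Markers of testicular somatic cells were present and differed between stages. The summed level of 13 Sertoli markers was 11.7 to 39.0 FPKM in the 8 pachytene and diplotene libraries and 233 to 314 FPKM in the 4 meiosis II libraries. Clu accounted for 166 to 228 FPKM of the latter, and the defining Sertoli factors Wt1 and Sox9 were at 1.94 to 3.18 and 1.5 to 2.13 FPKM there. Summed Leydig markers (8 genes) were at 9.25 to 68.5 FPKM in the earlier stages and at 270, 47.5, 102 and 188 FPKM in meiosis II, WT libraries first, with Insl3 at 258, 45.5, 95.5 and 180 FPKM. Star of the same list went the other way, from 1.26 to 4.19 FPKM in the earlier stages to 0.567 to 1.08 FPKM in meiosis II. Summed peritubular markers (6 genes) were at 4.87 to 16.3 FPKM in the earlier stages and 41.9 to 78.9 FPKM in meiosis II. Actg2 alone supplied 36.1 to 68.0 FPKM of the latter, while Acta2 (2.08 to 7.69 FPKM) and Tagln (1.46 to 4.15 FPKM) overlapped their levels in earlier stages. Blood and macrophage markers (11 genes) summed to 1.15 to 5.98 FPKM and then to 3.59 to 14.6 FPKM, and endothelial markers (6 genes) reached at most 2.53 FPKM in any library. No marker of these 5 lists that is in the table was at 0 in all 12 libraries. In such bulk samples fewer cells of a type and less RNA per cell cannot be told apart.

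**Figure D1:**
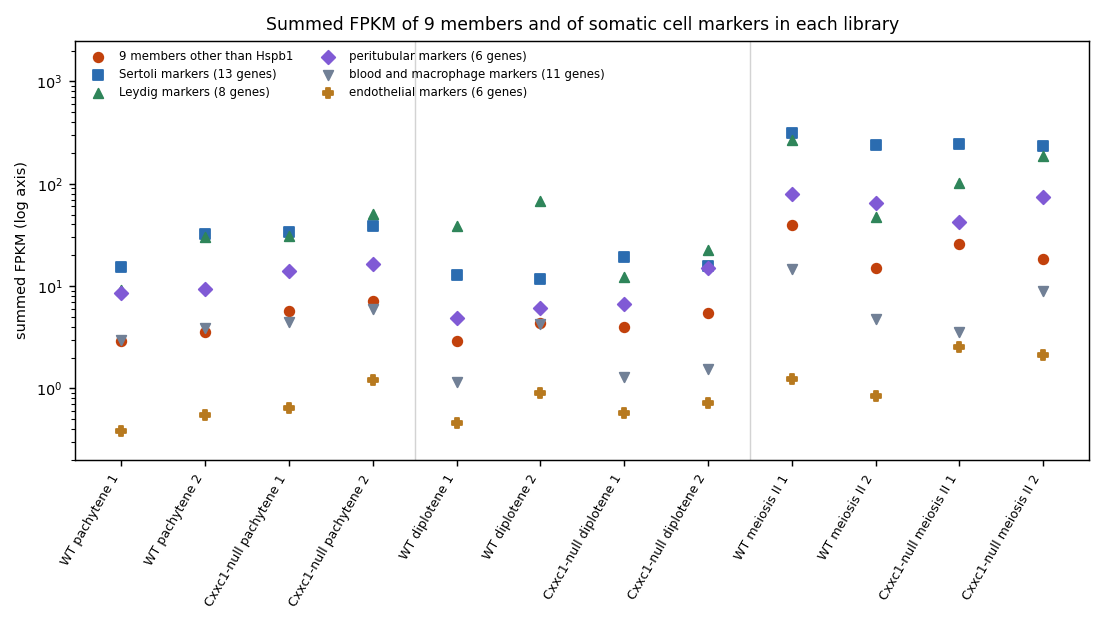
Summed FPKM of Sertoli, Leydig and other somatic marker lists in each of the 12 libraries, beside the summed FPKM of the 10 genes without Hspb1. The 4 meiosis II libraries hold the highest Sertoli sums, 233 to 314 FPKM, against at most 39.0 FPKM in the earlier stages.

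Most of the genes were low. In pachytene and diplotene 1 to 3 of the 10 reached 1 FPKM in a library, against 7 to 9 in meiosis II. Without Hspb1 the other 9 summed to 2.89 to 7.2 FPKM in the 8 earlier libraries. Their sum in meiosis II was 39.7 and 15.1 FPKM in WT and 25.7 and 18.4 FPKM in Cxxc1-null cells. Hspb1 was the highest gene of the set, with a mean of 27.2 FPKM over the 12 libraries, and it reached 1 FPKM in every one.

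**Figure D2:**
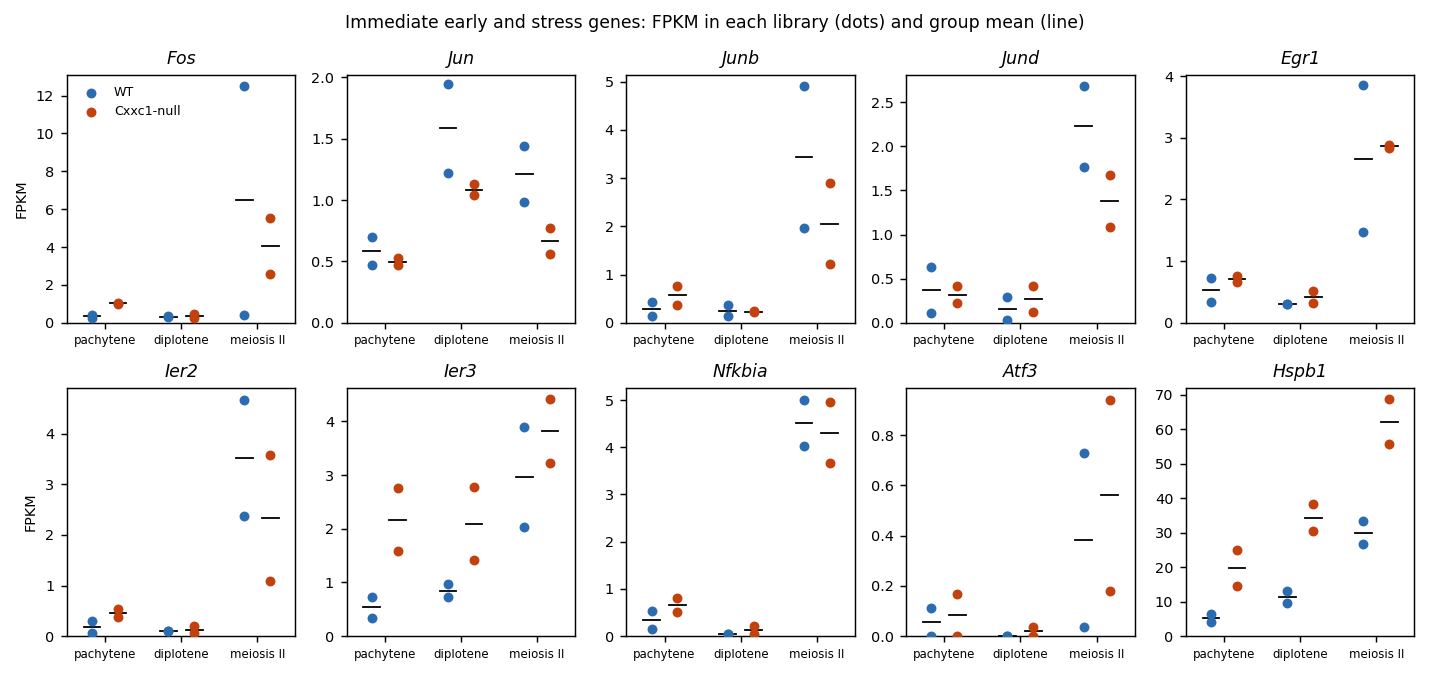
FPKM of each of the 10 genes in the 12 libraries, 1 point per library, by stage and genotype. Hspb1 spans 4.15 to 68.8 FPKM, and Nfkbia is at 3.66 to 5.01 FPKM in the 4 meiosis II libraries against at most 0.797 FPKM before.

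The first comparison asks how these genes differ between stages. A linear model of log2(FPKM + 1) was fitted over all 12956 genes with at least 1 FPKM in 2 libraries, and a gene was called at a limma adjusted p under 0.05. Differences are on the log2(FPKM + 1) scale with their standard errors, and they understate changes of low genes. Of the 10 genes, 9 passed the filter; Atf3 did not. Junb, Jund, Egr1, Ier2 and Nfkbia reached 1 FPKM only in meiosis II and so passed through the stage in which they are high. From diplotene to meiosis II, 7 of the 9 were called higher in WT, where 45% of all genes were called and 26.1% were called higher. In Cxxc1-null cells 6 were called higher, against 44.1% of all genes called and 25.3% called higher. Because of the filter, neither these counts nor a median over the 9 is evidence about the set, and the genes are described one by one.

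The all-gene balance depended on the scaling. The median difference over all genes in WT moved from 0.02 to -0.23 under quantile normalization and to -0.28 with equal library medians, and the share of called genes that were higher moved from 58% to 40.4% and 40.9%. In Cxxc1-null cells the median moved from -0.01 to -0.15 and -0.12, and the share from 57.3% to 45.6% and 50.6%.

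Among the AP-1 subunits, Junb, which encodes a JUN protein that often restrains c-JUN, was at 0.131 and 0.363 FPKM in WT diplotene and at 4.91 and 1.96 FPKM in WT meiosis II. In Cxxc1-null cells Junb was at 0.241 and 0.215 FPKM and then at 2.89 and 1.22 FPKM. All 4 meiosis II libraries lay above the 8 earlier ones. The log2 difference was 1.75 ± 0.34 in WT (limma adjusted p = 0.0019) and 1.26 ± 0.34 in Cxxc1-null cells (limma adjusted p = 0.013). The Cxxc1-null call for Junb was lost without Cxxc1-null meiosis II replicate 1 (limma adjusted p = 0.1) and without both libraries that stand apart (limma adjusted p = 0.052).

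Jund, the most broadly expressed JUN family gene in other tissues, followed the same order. Its level was 0.0266 and 0.296 FPKM in WT diplotene and 2.68 and 1.77 FPKM in WT meiosis II. In Cxxc1-null cells it was at 0.123 and 0.421 FPKM and then at 1.09 and 1.67 FPKM. The groups did not overlap in either genotype. Jund rose by 1.47 ± 0.24 in WT (limma adjusted p = 0.00077) and by 0.90 ± 0.24 in Cxxc1-null cells (limma adjusted p = 0.013). The Cxxc1-null call was lost under quantile normalization (limma adjusted p = 0.066), without Cxxc1-null diplotene replicate 1 (0.094 as the adjusted p), without Cxxc1-null meiosis II replicate 2 (0.096 as the adjusted p) and with a pseudocount of 0.01 (0.098 as the adjusted p).

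Fos, the partner that JUN proteins need for the most stable AP-1 dimer, varied most between libraries of a group. Its WT meiosis II libraries were at 12.5 and 0.424 FPKM, and its Cxxc1-null meiosis II libraries at 5.56 and 2.58 FPKM. In the earlier stages it was at 0.26 to 0.488 FPKM in 6 libraries and at 1.00 and 1.04 FPKM in Cxxc1-null pachytene. WT meiosis II replicate 2 was thus within reach of the earlier libraries, while replicate 1 was the highest of all 12. The difference from diplotene to meiosis II was 1.72 ± 0.77 in WT (limma adjusted p = 0.093) and 1.82 ± 0.77 in Cxxc1-null cells (limma adjusted p = 0.079), and neither passed. It was 3.35 without WT meiosis II replicate 2 (limma adjusted p = 0.00019) and 0.10 without WT meiosis II replicate 1. Replicate 1 also held more Leydig marker transcript than replicate 2, with summed levels of 270 and 47.5 FPKM; the part of this in the Fos values was not tested.

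Jun, the core AP-1 subunit, had another order of levels. It was at 0.469 and 0.701 FPKM in WT pachytene, at 1.22 and 1.95 FPKM in WT diplotene, and at 1.44 and 0.985 FPKM in WT meiosis II. In Cxxc1-null cells it was at 0.468 and 0.527 FPKM, at 1.13 and 1.04 FPKM, and at 0.56 and 0.776 FPKM. Diplotene lay above pachytene in both genotypes, without overlap. From pachytene to diplotene WT Jun rose by 0.69 ± 0.19 (limma adjusted p = 0.024), a call that was lost without WT pachytene replicate 1 (limma adjusted p = 0.13), without WT diplotene replicate 2 (limma adjusted p = 0.17) and in a separate fit of the 2 groups (limma adjusted p = 0.12). From diplotene to meiosis II its difference was -0.22 ± 0.19 in WT (limma adjusted p = 0.39), but -0.72 under quantile normalization (limma adjusted p = 0.0069) and -0.51 with equal medians (limma adjusted p = 0.036). In Cxxc1-null cells it was -0.32 ± 0.19 (limma adjusted p = 0.2), and -0.68 under quantile normalization (limma adjusted p = 0.011).

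Egr1 was at 0.298 and 0.299 FPKM in WT diplotene and at 3.85 and 1.47 FPKM in WT meiosis II. The Cxxc1-null libraries were at 0.321 and 0.515 FPKM and then at 2.89 and 2.84 FPKM. No earlier library reached the lowest meiosis II value. Egr1 rose by 1.41 ± 0.28 in WT and by 1.45 ± 0.28 in Cxxc1-null cells (limma adjusted p = 0.002 in both). Ier2, a nuclear protein gene of the early wave whose function is less well known, was at 0.0533 to 0.2 FPKM in the 4 diplotene libraries. Its meiosis II levels were 4.68 and 2.38 FPKM in WT and 3.59 and 1.09 FPKM in Cxxc1-null cells. Ier2 rose by 1.99 ± 0.34 (limma adjusted p = 0.00093) and 1.46 ± 0.34 (limma adjusted p = 0.006). The calls for Egr1, Ier2 and Nfkbia held in all 12 alternatives in which they were fitted, in both genotypes. Apart from the fit with no filter, these alternatives kept the 1 FPKM filter that the genes passed through meiosis II. None of these genes was fitted at the 5 FPKM filter.

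Nfkbia had the largest stage difference of the 9 genes tested. In WT it was at 0.145 and 0.527 FPKM in pachytene, at 0.0518 and 0.048 FPKM in diplotene and at 5.01 and 4.03 FPKM in meiosis II. The Cxxc1-null libraries were at 0.797 and 0.514, at 0.0479 and 0.204, and at 4.96 and 3.66 FPKM. The 4 meiosis II libraries lay close together and far above the rest. The log2 difference from diplotene to meiosis II was 2.39 ± 0.21 in WT (limma adjusted p = 2.6e-05) and 2.23 ± 0.21 in Cxxc1-null cells (limma adjusted p = 5.7e-05). Ier3, a stress-inducible gene that NF-kB is known to drive and that affects cell survival, was at 0.723 and 0.969 FPKM in WT diplotene and at 3.89 and 2.04 FPKM in WT meiosis II. Ier3 rose by 1.06 ± 0.32 in WT (limma adjusted p = 0.019), and this call was lost under quantile normalization (limma adjusted p = 0.094), without either WT diplotene replicate (0.094 and 0.05 as adjusted p) and without WT meiosis II replicate 1 (0.15 as the adjusted p). In Cxxc1-null cells Ier3 differed by 0.66 ± 0.32 (limma adjusted p = 0.12).

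Atf3 was the lowest of the 10. It was listed at 0 in 5 of the 12 libraries and reached 1 FPKM in none, so it was not tested. Its highest levels were in meiosis II, at 0.729 and 0.0377 FPKM in WT and at 0.942 and 0.18 FPKM in Cxxc1-null cells. WT meiosis II replicate 2 was again low, as for Fos.

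Hspb1 was at 4.15 and 6.33 FPKM in WT pachytene, at 9.47 and 13.2 FPKM in WT diplotene and at 33.3 and 26.8 FPKM in WT meiosis II. The WT groups did not overlap at any step. Hspb1 rose by 0.99 ± 0.31 from pachytene to diplotene (limma adjusted p = 0.038) and by 1.34 ± 0.31 from diplotene to meiosis II (limma adjusted p = 0.0049). The first of these calls was lost without WT pachytene replicate 1 or WT diplotene replicate 2 (limma adjusted p = 0.21 in both), without WT diplotene replicate 1 (0.061 as the adjusted p), with no filter (0.063 as the adjusted p) and in a separate fit (0.14 as the adjusted p). In Cxxc1-null cells Hspb1 was at 25.0 and 14.4, at 30.6 and 38.2, and at 55.6 and 68.8 FPKM. Its step to meiosis II was 0.84 ± 0.31 (limma adjusted p = 0.048), which held in 3 of 13 alternatives; the adjusted p was 0.051 with the replicate number as a block.

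Between pachytene and diplotene, Jun and Hspb1 were the 2 genes called in WT, against 26.5% of all genes called and 9.08% called higher. In Cxxc1-null cells limma called 0 of the 9, against 29.3% of all genes called. At an unadjusted p under 0.05 there were 3 of the 9, against 42.6% of all genes. By levels alone, diplotene lay above pachytene for Jun and Hspb1 in both genotypes (2 of 10, against 24.3% of genes tested in WT and 31% in Cxxc1-null cells). It lay below for Egr1 and Nfkbia in WT (2 of 10, against 38.7%). In Cxxc1-null cells it lay below for Fos, Junb, Egr1, Ier2 and Nfkbia (5 of 10, against 38.6%).

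**Figure D3:**
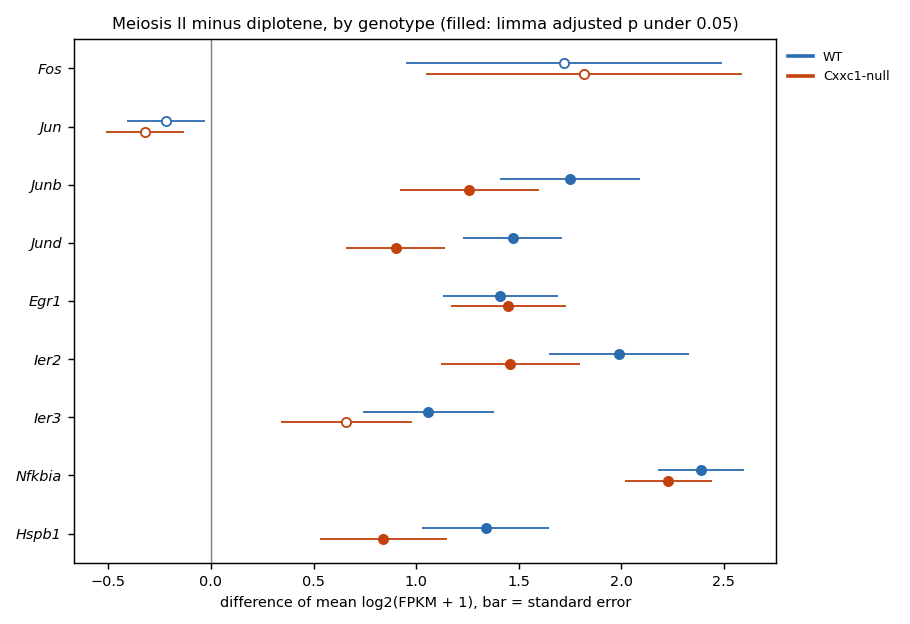
Log2(FPKM + 1) differences from diplotene to meiosis II for the 9 tested genes in each genotype. Bars are standard errors, and filled points have a limma adjusted p under 0.05. Nfkbia has the largest step to meiosis II, 2.39 in WT and 2.23 in Cxxc1-null cells, and Jun the only negative ones, -0.22 and -0.32.

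All 4 meiosis II libraries lay above all 8 earlier libraries for 5 of the 10 genes (Junb, Jund, Egr1, Ier2 and Nfkbia), against 21.2% of the genes tested. Meiosis II lay above diplotene without overlap for 9 of the 10 in each genotype, against 38.2% of genes tested in WT and 37.4% in Cxxc1-null cells, and Jun lay below in Cxxc1-null cells (1 of 10, against 36%). The 9 include Atf3, which was not tested, so they and the shares are not of like genes. For Fos the lowest WT meiosis II level was 0.424 FPKM and the highest WT diplotene level 0.339 FPKM. The 5 genes above all earlier libraries are those that entered the test through meiosis II. Sertoli and peritubular marker sums were also higher in every meiosis II library than in any earlier one; the part of somatic transcript in these levels was not tested. Spermatid markers moved with the step too. All 10 were called higher in both genotypes, with medians of 4.20 and 2.97, and their part was not tested either. Their sum went from 360 and 800 FPKM to 7410 and 10500 FPKM in WT and from 159 and 818 FPKM to 2040 and 4430 FPKM in Cxxc1-null cells.

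The second comparison asks how loss of Cxxc1 moved these genes. Hspb1 was the clearest case. The Cxxc1-null libraries lay above both WT libraries at each of the 3 stages, which held for 8.24% of the genes tested. Pachytene means were 5.24 ± 1.5 FPKM (SD, n = 2) for WT and 19.7 ± 7.5 FPKM for Cxxc1-null cells, a ratio of 3.76. Diplotene means were 11.4 ± 2.7 and 34.4 ± 5.4 FPKM, a ratio of 3.03. Meiosis II means were 30.1 ± 4.6 and 62.2 ± 9.3 FPKM, a ratio of 2.07. Averaged over stages Hspb1 was higher by 1.42 ± 0.18 (limma adjusted p = 0.0011), and the 21 alternatives gave 1.29 to 1.54 with adjusted p from 0.00071 to 0.016. Within single stages the differences of 1.70 ± 0.31, 1.53 ± 0.31 and 1.02 ± 0.31 did not pass (limma adjusted p = 0.056, 0.055 and 0.062).

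Ier3 was the other gene called in the stage average. Pachytene levels were 0.339 and 0.726 FPKM for WT against 1.58 and 2.75 FPKM for Cxxc1-null cells. Diplotene levels were 0.723 and 0.969 FPKM against 1.41 and 2.78 FPKM. Meiosis II levels were 3.89 and 2.04 FPKM against 3.22 and 4.42 FPKM. The genotypes were apart in the first pair of stages and overlapped in meiosis II. The average difference of Ier3 was 0.69 ± 0.18 (limma adjusted p = 0.03). It passed in 10 of 20 alternatives, with adjusted p from 0.019 to 0.12. The call was lost without both libraries that stand apart (0.64, limma adjusted p = 0.069) and with stages joined to 1 mean per genotype and replicate number (limma adjusted p = 0.12). It was also lost without WT pachytene replicate 1 (adjusted p = 0.056 in limma), Cxxc1-null pachytene replicate 2 (0.082), WT diplotene replicate 1 (0.073) or 2 (0.057), Cxxc1-null diplotene replicate 2 (0.073), or replicate 2 of WT (0.075) or Cxxc1-null (0.084) meiosis II.

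Beside these differences, Sertoli marker sums in pachytene were 15.2 and 32.1 FPKM for WT against 34.1 and 39.0 FPKM for Cxxc1-null cells. They were 12.9 and 11.7 against 19.3 and 15.8 FPKM in diplotene. In meiosis II the WT sums of 314 and 240 FPKM stood against 243 and 233 FPKM. Dhh of the same list was at 0.878 and 1.26 against 4.01 and 3.12 FPKM in pachytene. Its levels were 2.63 and 2.66 against 6.12 and 7.25 FPKM in diplotene, and 4.64 and 6.89 against 12.6 and 16.4 FPKM in meiosis II. Limma called 1 of the 9 tested Sertoli markers higher and 0 lower in the stage average, and the list median was 0.06. Leydig sums were higher in Cxxc1-null pachytene (30.9 and 51.1 against 9.25 and 30.3 FPKM) and lower in Cxxc1-null diplotene (12.3 and 22.7 against 38.4 and 68.5 FPKM). Peritubular sums were also higher in Cxxc1-null pachytene (14.2 and 16.3 against 8.62 and 9.37 FPKM) and diplotene (6.7 and 15.0 against 4.87 and 6.17 FPKM). Blood and macrophage sums were higher in Cxxc1-null pachytene (4.48 and 5.98 against 2.96 and 3.87 FPKM). Spermatid sums were 2220 and 1990 FPKM for WT against 2120 and 1410 FPKM in pachytene. In diplotene they were 360 and 800 against 159 and 818 FPKM, and in meiosis II 7410 and 10500 against 2040 and 4430 FPKM. The median difference of the list was 0.13 in pachytene, 0.18 in diplotene and -1.06 in meiosis II. Acrv1 among these markers was at 17.7 and 11.9 against 45.1 and 65.4 FPKM in pachytene. Its diplotene levels were 10.4 and 11.9 against 19.6 and 70.0 FPKM, and its meiosis II levels overlapped, at 465 and 291 against 226 and 442 FPKM. Prm2 went the other way in pachytene, at 489 and 485 against 369 and 208 FPKM. Limma called 2 of the 10 spermatid markers higher and 1 lower in the stage average, against 11.5% and 5.13% of all genes. The part of somatic or spermatid transcripts in the Hspb1 and Ier3 differences was not tested.

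Over the stage average limma called 2 of the 9 genes, both higher, against 16.7% of all genes called and 11.5% called higher. The share of called genes that were higher was 69.2%, and it was 51.1% under quantile normalization and 58.8% with equal medians. Fos had an average difference of 0.26 ± 0.44 (limma adjusted p = 0.73), which was 0.80 without WT meiosis II replicate 1 (limma adjusted p = 0.017) and -0.28 without replicate 2. Jun had -0.26 ± 0.11 (limma adjusted p = 0.13), and -0.42 under quantile normalization (limma adjusted p = 0.023). The other 5 tested genes lay between -0.11 and 0.15, at adjusted p of 0.54 or more.

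Within stages limma called 0 of the 9 genes. Over all genes 0.355% were called in pachytene, 0.787% in diplotene and 10.5% in meiosis II. An unadjusted p under 0.05 was found for 2 of the 9 in pachytene, 2 in diplotene and 1 in meiosis II, and for 10.7%, 13.5% and 26.1% of all genes. By levels alone, the Cxxc1-null libraries were both above both WT libraries for Fos, Ier2, Ier3 and Hspb1 in pachytene (4 of 10, against 24.1% of genes tested). In diplotene this held for Egr1, Ier3 and Hspb1 (3 of 10, against 30.4%), with Jun below (1 of 10, against 15.2%). In meiosis II it held for Hspb1 (1 of 10, against 30.1%), with Jun and Jund below (2 of 10, against 26.4%). Fos at 1.00 and 1.04 FPKM in Cxxc1-null pachytene, against 0.265 and 0.426 FPKM in WT, had a difference of 0.59 ± 0.77 that did not pass (limma adjusted p = 0.84). The genotype by stage interaction gave 0 calls among the 9 genes in limma, against 0.054% of all genes called. At an unadjusted p under 0.05 it gave 0 of the 9, against 8.77% of all genes.

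**Figure D4:**
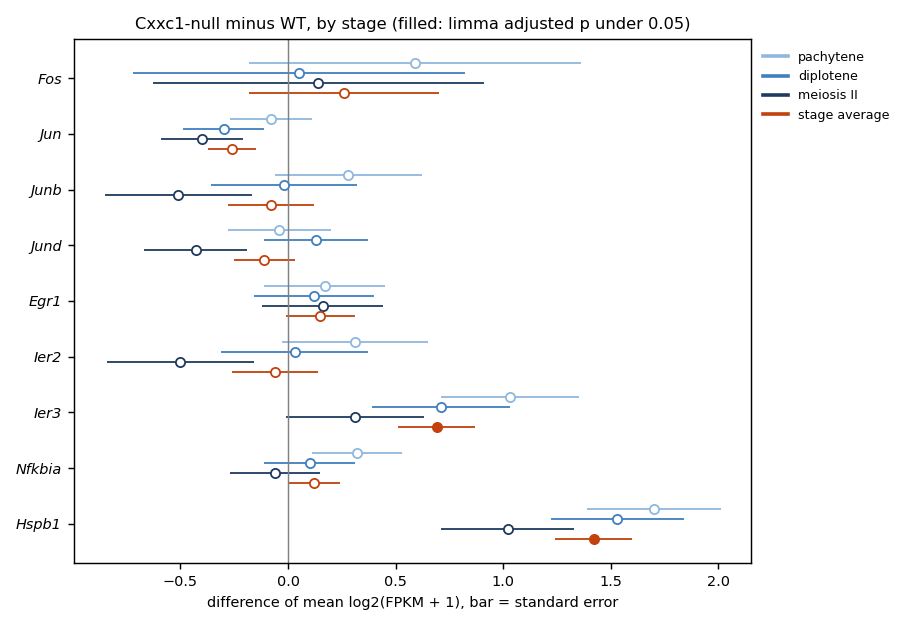
Cxxc1-null minus WT differences of mean log2(FPKM + 1) for the 9 tested genes at each stage and averaged over stages, with standard errors as bars. Filled points, a limma adjusted p under 0.05, are the stage averages of Hspb1 (1.42) and Ier3 (0.69).

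Related genes were read from lists of the same pathways, leaving out the 10. Of 41 other immediate early genes, 27 were tested. From diplotene to meiosis II, 13 were called higher and 4 lower in WT, and 13 and 3 in Cxxc1-null cells, against 26.1% and 25.3% of all genes called higher. Of the 27, 9 reached 1 FPKM only in meiosis II and so entered through that stage, and nothing is read from these counts. Under quantile normalization the counts were 9 and 5 in WT and 8 and 4 in Cxxc1-null cells. Nr4a1, an orphan nuclear receptor gene, was at 0.157 and 0.291 FPKM in WT diplotene and at 8.52 and 9.26 FPKM in WT meiosis II, a difference of 3.02 ± 0.26 (limma adjusted p = 2.4e-05). Klf2, a Krüppel-like factor gene, rose by 2.67 ± 0.25 (limma adjusted p = 3.2e-05). Not all of the list moved so: 10 of 27 were not called in WT, and Ptgs2, which encodes cyclooxygenase 2, was listed at 0 in all 12 libraries. In Cxxc1-null cells averaged over stages, Plk3, a polo-like kinase gene, was higher by 0.48 ± 0.07 (limma adjusted p = 0.0029) and Ier5 was lower by a difference of -0.62 ± 0.11 (limma adjusted p = 0.0063). Each of these calls was lost with stages joined to 1 mean per genotype and replicate number (limma adjusted p = 0.063 for Plk3 and 0.12 for Ier5). Plk3 reached 1 FPKM only in the Cxxc1-null meiosis II libraries (1.06 and 1.22 FPKM). It thus passed the filter through a group of the genotype in which it was called higher, and was not fitted without either library.

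**Figure D5:**
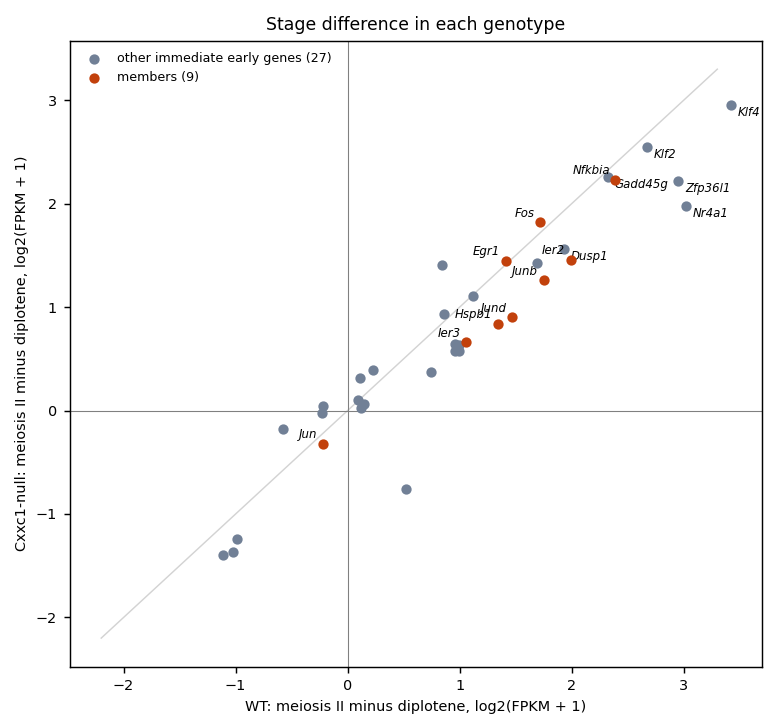
Difference from diplotene to meiosis II in WT (horizontal) and Cxxc1-null cells (vertical), log2(FPKM + 1), for 27 other immediate early genes and the 9 tested genes of the set; the line marks equal differences. Nfkbia lies at 2.39 and 2.23, and Jun is the only one of the 9 below 0 on both axes.

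The other lists gave smaller counts. Of 14 other AP-1 subunits 4 were tested, and 0 were called between WT stages. Of all genes 26.5% were called from pachytene to diplotene and 45% from diplotene to meiosis II. Fosl1, which encodes FRA-1, was at 0.478 and 0.4 FPKM in WT and 3.52 and 1.28 FPKM in Cxxc1-null meiosis II, a difference of 1.16 ± 0.26 (limma adjusted p = 0.021). The Fosl1 call was lost in 4 of 10 alternatives, among them leaving out either WT meiosis II replicate (limma adjusted p = 0.094 in both). Of the 28 kinases and SRF, ETS and CREB factors, 25 were tested. From pachytene to diplotene in WT 8 fell and 0 rose, where 17.4% of all genes were called lower and 9.08% higher. The split depended on the scaling, with 3 lower and 1 higher under quantile normalization and 6 and 2 with equal medians. In Cxxc1-null meiosis II 4 were higher, where 6.14% of all genes were called higher. Map2k1, an ERK-activating kinase gene (1.34 ± 0.26, limma adjusted p = 0.013), and the ETS factor gene Elk4 (1.01 ± 0.18, limma adjusted p = 0.0087) were among the 4. The Map2k1 call was lost in 3 of 12 alternatives, without WT meiosis II replicate 1 (limma adjusted p = 0.092) and Cxxc1-null meiosis II replicate 1 (0.086 as the adjusted p) among them. The Elk4 call was lost in 3 of 10, without WT meiosis II replicate 2 (0.055 as the adjusted p) among them. In the NF-kB pathway list 12 of 20 were tested. From diplotene to meiosis II 3 rose and 3 fell in WT, against 26.1% of all genes called higher and 18.9% called lower. Under quantile normalization 1 rose and 6 fell, so the direction of the list depends on the scaling. Nfkb1, which encodes the p50 precursor, rose by 1.21 ± 0.16 (limma adjusted p = 2e-04), and Traf2, an adaptor gene of TNF receptors, had -1.44 ± 0.27 (limma adjusted p = 0.0017). Relb, an NF-kB subunit gene, was at 0.827 and 0.87 FPKM in WT and 2.75 and 2.68 FPKM in Cxxc1-null meiosis II (1.01 ± 0.14, limma adjusted p = 0.0029). This call was lost in 3 of 10 alternatives, with a limma adjusted p of up to 0.31. Fosl1, Elk4 and Relb reached 1 FPKM only in the 2 Cxxc1-null meiosis II libraries. Each thus passed the filter through the group in which it was called higher, and nothing is read from these calls. Leaving out either of these libraries dropped the gene from the fit, so neither alternative is among the 10.

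Among 17 integrated stress response genes 11 were tested. From diplotene to meiosis II 2 rose and 2 fell in both genotypes. Of all genes 26.1% were called higher and 18.9% lower in WT, and 25.3% and 18.8% in Cxxc1-null cells. Asns, the asparagine synthetase gene and an ATF4 target, was at 0.785 and 0.575 FPKM in WT diplotene and at 30.6 and 17.9 FPKM in WT meiosis II (3.87 ± 0.36, limma adjusted p = 3.5e-05). Atf4 itself went the other way, from 31.8 and 33.3 FPKM in WT diplotene to 13.9 and 9.75 FPKM in WT meiosis II. Of 23 heat shock genes other than Hspb1, 17 were tested. Averaged over stages 0 were higher and 2 lower in Cxxc1-null cells, against 11.5% and 5.13% of all genes. The 2 were Bag3, an HSP70 co-chaperone gene, at -0.53 ± 0.15 (limma adjusted p = 0.034), and Hsph1, an HSP110 chaperone gene, at -0.47 ± 0.14 (limma adjusted p = 0.045). Both calls were fragile: 12 of 21 alternatives ended that of Bag3 and 13 of 21 that of Hsph1, each with an adjusted p of up to 0.25. The inducible HSP70 genes Hspa1a and Hspa1b, which are near-identical copies and so uncertain, were at most 0.332 and 0.123 FPKM in any library. In meiosis II alone Hspe1, a mitochondrial chaperonin gene, was higher in Cxxc1-null cells (1.37 ± 0.33, limma adjusted p = 0.03). That call was lost in 5 of 13 alternatives, with adjusted p of 0.079, 0.15, 0.058 and 0.2 when WT replicates 1 and 2 and Cxxc1-null replicates 1 and 2 of meiosis II were left out in turn.

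The profiles most like those of the 3 genes with the highest means were found by the root mean square difference of standardized log2(FPKM + 1) values over the 12 libraries. For Hspb1 they were Myl4, a myosin light chain gene (0.183), 1700096K18Rik (0.223) and Pgf, a placental growth factor gene (0.242). For Fos they included Akr1cl (0.229) and the immediate early gene Btg2 (0.254). For Ier3 they were Gm7073 (0.27), 1700122O11Rik (0.32) and Arhgef3 (0.349). Akr1cl was at 19.2 and 1.05 FPKM in the WT meiosis II libraries and at 8.05 and 5.28 FPKM in the Cxxc1-null ones, the same order as Fos. Points share library and stage, so likeness is a description of these 12 libraries.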

How the data were processed

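The authors deposited 1 table of FPKM values for 23235 genes in 12 RNA libraries, and groups were taken from sample titles. For these libraries the submitters' processing notes list TopHat2 2.1.1, Cufflinks 2.2.1 and mm9; what each tool did and the strand setting are not given in the sources used here. The series' 8 H3K4me3 libraries were not analysed here. FPKM are not counts, so no count test was run. The test used log2(FPKM + 1) of 12956 genes that reached 1 FPKM in 2 or more libraries. A single limma model (version 3.58.1, R 4.3.3) held all 6 groups, leaving 6 residual degrees of freedom. Variances were moderated along a trend with mean level, and p-values were adjusted over all genes (Benjamini-Hochberg, threshold 0.05). The model was tested on simulated data.

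The 10 genes, the related lists and the alternatives were chosen with earlier results of these data known. All 10 genes are named. From each related list up to 4 genes with the smallest p in the stage average, and up to 2 in each within-stage and WT stage contrast, could be named. For the 3 of the 10 with the highest mean level, the 3 genes with the most similar profiles are named, except that 1 of them is not reported here. Alternatives were other pseudocounts (0.1, 0.01), filters (none, 5 FPKM), scalings, a replicate block, separate fits, joined stages, and leaving out each library or both that stand apart. Symbols were matched to RefSeq promoters of GRCm38.p6.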

Additional observations from a re-analysis of the deposited data

Results flagged for a closer look

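Relb had Cxxc1-null minus WT differences of opposite sign in 2 stages, -0.29 in pachytene and 1.01 in meiosis II. Every library lay on the side of its group. Relb levels in pachytene were near the floor, at 0.25 and 0.242 FPKM in WT and at 0 and 0.0394 FPKM in Cxxc1-null cells. The limma interaction test over all genes gave Relb an adjusted p of 0.11. Relb passed the filter only through the Cxxc1-null meiosis II libraries, in which it was high. Map2k4, a kinase gene upstream of JNK, had -0.29 in pachytene, 0.38 in diplotene and 0.79 in meiosis II, again with no overlap of libraries, and its limma interaction adjusted p was 0.28. Neither interaction passed the threshold.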

How the results depend on the processing

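With replicate number as a block, 7, 5 and 2 of the 9 genes were called from diplotene to meiosis II in WT, in Cxxc1-null cells and in the stage average; the block ended the call of Hspb1 in the Cxxc1-null step (adjusted p = 0.051) and no other call of the 9. Over 15 same-numbered pairs the correlation of deviations ran from -0.25 to 0.42, with 11 over 0.1; as 4 were not, the numbers were not taken to pair the samples, though a shared factor was not tested. Over all genes the block moved the calls from 46 to 66 in pachytene and from 1358 to 1813 in meiosis II. Above 5 FPKM, where few of the 10 genes were fitted, 1 was called from diplotene to meiosis II in WT and 1 in Cxxc1-null cells, 1 in the stage average and 1 from pachytene to diplotene in WT. The stage average also gave 1 with no filter, without both libraries that stand apart and with stages joined, and leaving out 1 library gave 1 to 3. From pachytene to diplotene, WT gave 1 with no filter, 0 in a separate fit and 0 to 2 leaving out 1 library; Cxxc1-null cells gave 1 with a pseudocount of 0.1 or 0.01 or quantile normalization, 2 with equal medians and 0 to 1 leaving out 1 library. Within stages, pachytene gave 1 with either pseudocount, quantile normalization or equal medians, diplotene 1 with either pseudocount and 0 to 1 leaving out 1 library, and meiosis II 1 with quantile normalization or equal medians and 0 to 1 leaving out 1 library. With these pseudocounts and scalings the gene called in pachytene and in diplotene was Hspb1. In the order given, these settings called 86, 97, 35 and 39 of 12956 genes in pachytene and 212 and 247 in diplotene. Quantile normalization and equal medians called 1698 and 1389 genes in meiosis II. For the Cxxc1-null step from pachytene to diplotene the 4 settings called 3585, 3365, 3983 and 3832 genes. Uncalled values turned sign in the stage average for Ier2 (0.16 and 0.30 with pseudocounts of 0.1 and 0.01, and -0.24 to 0.13 leaving out 1 library), Junb (0.04 and 0.13 with these pseudocounts, and -0.25 to 0.08 leaving out 1 library) and Jund (0.22 with 0.01). Leaving out 1 library gave -0.01 to 0.31 for Egr1 and -0.28 to 0.80 for Fos there, and -0.03 to 0.66 for Ier3 in meiosis II; leaving out WT meiosis II replicate 2 gave each lowest value and leaving out replicate 1 each highest. The signs of Ier2 and Junb turned without WT meiosis II replicate 1 (0.07 and 0.08) and Cxxc1-null meiosis II replicate 2 (0.13 and 0.05). The cause was not tested.

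Groups of 2, an unknown depth and levels under 1 FPKM for most of these genes limit the precision. A leave-one-out fit assumes that the remaining library of a group varies like the other groups.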
